A study of Mus musculus with 12 samples.

Results

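The 38 genes described here encode integrin chains, proteins of the adhesion plaque, CD44, tetraspanins and galectins, which together hold cells to matrix and to each other. They were chosen by gene symbol, and each gene is represented by the probe set whose mean over the 12 arrays was highest. Of the 38, 36 were measured, among 12393 genes in all, and 25 had a mean signal above the median probe set, which was the condition for testing, as had 6825 genes in all. Itga1 and Ptk2 are not analysed here, and the other 11 genes lay below that limit and are given separately.

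The tumours arose in female FVB mice carrying MMTV-c-myc, a c-Myc transgene driven by the mammary tumour virus promoter, which is active mainly in mammary epithelium. Of the 12 tumour arrays, 6 came from Hunk KO mice, in which a neomycin cassette replaces the putative promoter and exon 1 of the kinase gene Hunk, and 6 from Hunk WT mice with the same transgene. Mice were mated 2 times and then watched for mammary tumours. The labels do not state that each array is a separate mouse, so the p-values measure the spread between these arrays, part of which may be technical.

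Integrins are paired alpha and beta chains that bind matrix proteins such as laminin and fibronectin outside the cell and, through talin, vinculin and other plaque proteins, the actin cytoskeleton inside it. Tetraspanins are membrane proteins that gather integrins into clusters, and galectins are lectins that bind galactose-containing sugars on integrins and other glycoproteins. In mammary epithelium the laminin receptors anchor cells to the basement membrane, and CD44 is the main receptor for the matrix sugar hyaluronan.

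Signals are log2 values after GCRMA, so a difference of 1 is a doubling, and a level is not comparable between probe sets. The array medians lay between 3.91 and 4.10 in Hunk KO tumours and between 3.87 and 4.01 in Hunk WT tumours, and the highest Bacillus control probe set of each array served as its background (3.71 ± 0.15 in Hunk KO and 3.60 ± 0.10 in Hunk WT tumours, SD, n = 6 each). Hunk itself was not above background on any of the 6 Hunk KO arrays, at 2.60 to 3.06, and was above it on 4 of 6 Hunk WT arrays, at 2.99 to 5.53, at least 1.41-fold lower in Hunk KO tumours (adjusted p = 0.181 in the fit without a filter). For lists of cell markers, the linear signals were added and the log2 of the sum is given, so the brightest probe sets weigh most. All 8 luminal epithelial markers were measured, and 2 of the 8, Krt19 and Cd24a, rose in Hunk KO tumours. Their summed signal was 13.90 to 15.29 in Hunk KO and 13.89 to 14.71 in Hunk WT tumours over the 8. At the same time 4 of 7 endothelial and 6 of 9 lymphocyte markers lay at background on all 12 arrays. A sign of RNA quality, how far the 3′ probe set of the beta-actin control exceeds the 5′ one, was 1.26 to 1.72 in Hunk KO and 1.21 to 1.34 in Hunk WT arrays. Knockout tumours 4 and 5 were the closest pair of arrays (SD of their difference over probe sets 0.333, against 0.542 for the next pair), and they are treated as 1 sample in an alternative fit.

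The galectin Lgals3 rose in Hunk KO tumours, and it was the only 1 of the 25 tested genes with an adjusted p under 0.05. That is 4.0% of the 25, beside 3.34% of all tested genes (228 of 6825), of which 113 were higher (1.66%) and 115 lower (1.68%) in Hunk KO tumours. With each array centred on its median over all probe sets, the split over all genes was 68 higher and 126 lower. At an adjusted p under 0.1 there were 3 of the 25, Lgals3 and Vcl at higher and Itga6 at lower signal, beside 6.78% of all genes. At an unadjusted p under 0.05 there were 8 of 25, or 32.0%, of which 5 had a higher and 3 a lower mean in Hunk KO tumours, beside 19.5% of all genes. None of the 25 had groups that do not overlap, against 3.15% of all tested genes. The differences had a median of 0.02 over the 25 genes and 0.01 over all tested genes, and 14 of the 25 were positive and 11 negative. In bulk tumour RNA, fewer cells of a type and less RNA per cell cannot be told apart.

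**Figure D1:**
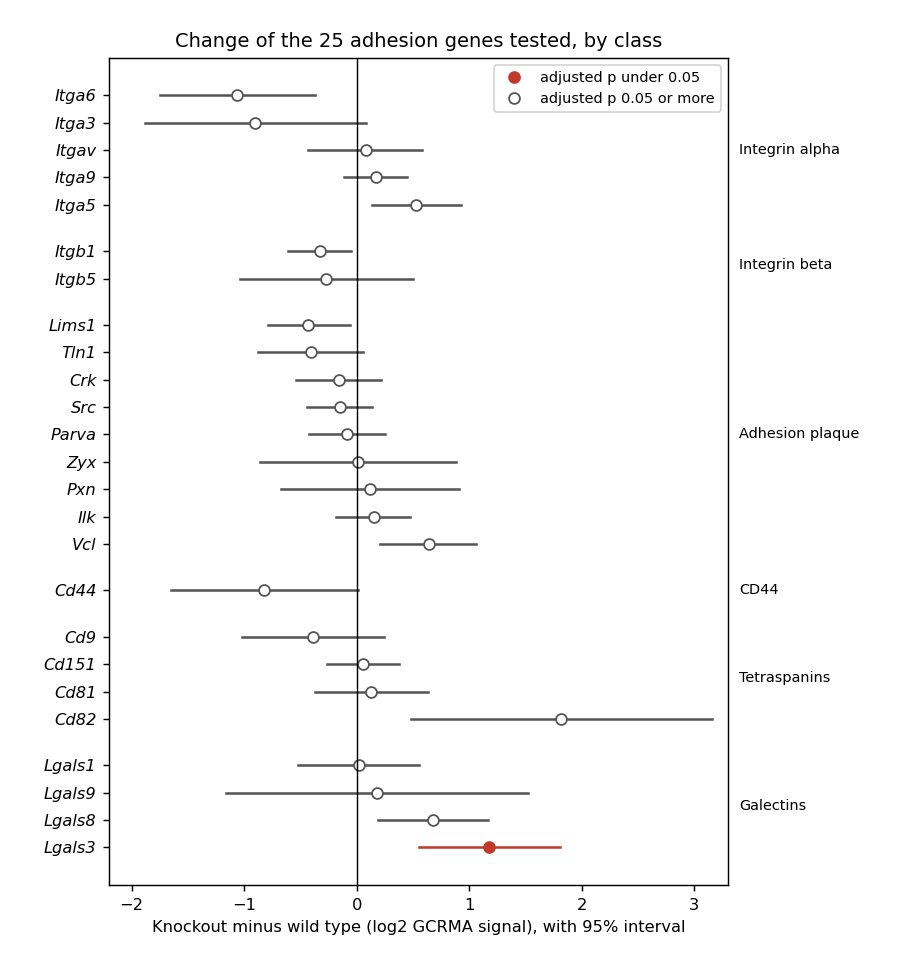
Difference in log2 GCRMA signal, Hunk KO minus Hunk WT, for the 25 tested adhesion genes in 6 classes, with the 95% interval of the limma fit. The filled point is Lgals3 at 1.18, and the intervals of Itga6, Itgb1, Lims1, Itga5, Vcl, Cd82 and Lgals8 also lie to 1 side of 0, with adjusted p at or above 0.05.

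Among the 11 alpha chains listed, 10 were measured, 5 were tested and 0 passed, with 2 at an unadjusted p under 0.05 and differences from -1.06 to 0.53. Itga6, the alpha chain of the laminin receptors of epithelial cells, had a lowest, median and highest signal of 8.84, 9.13 and 9.84 in Hunk KO tumours, against 9.70, 9.86 and 11.42 in Hunk WT tumours. Of the 6 Hunk KO tumours, 5 lay below the lowest Hunk WT tumour, knockout tumour 6 lay inside the Hunk WT range, and wild-type tumours 2 and 5 stood above the other Hunk WT tumours. The difference was -1.06 (SE 0.32, 95% interval -1.75 to -0.37, 2.08-fold, adjusted p = 0.0938). It kept its sign and did not pass in the 25 alternative fits, in which it lay between -1.34 and -0.83 with adjusted p from 0.05 to 0.321.

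A second, dimmer probe set of Itga6 gave 6.78, 7.47 and 8.0 in Hunk KO tumours and 8.21, 8.34 and 9.95 in Hunk WT tumours. On it every Hunk KO tumour lay below every Hunk WT tumour, with the highest signals again in wild-type tumours 2 and 5. Its difference was -1.34 (SE 0.34, adjusted p = 0.058 over probe sets). It was the only 1 of the 48 tested probe sets of these genes whose groups do not overlap, beside 2.87% of all 11313 tested probe sets, and 0 of the 48 passed, beside 2.46% of all probe sets.

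**Figure D2:**
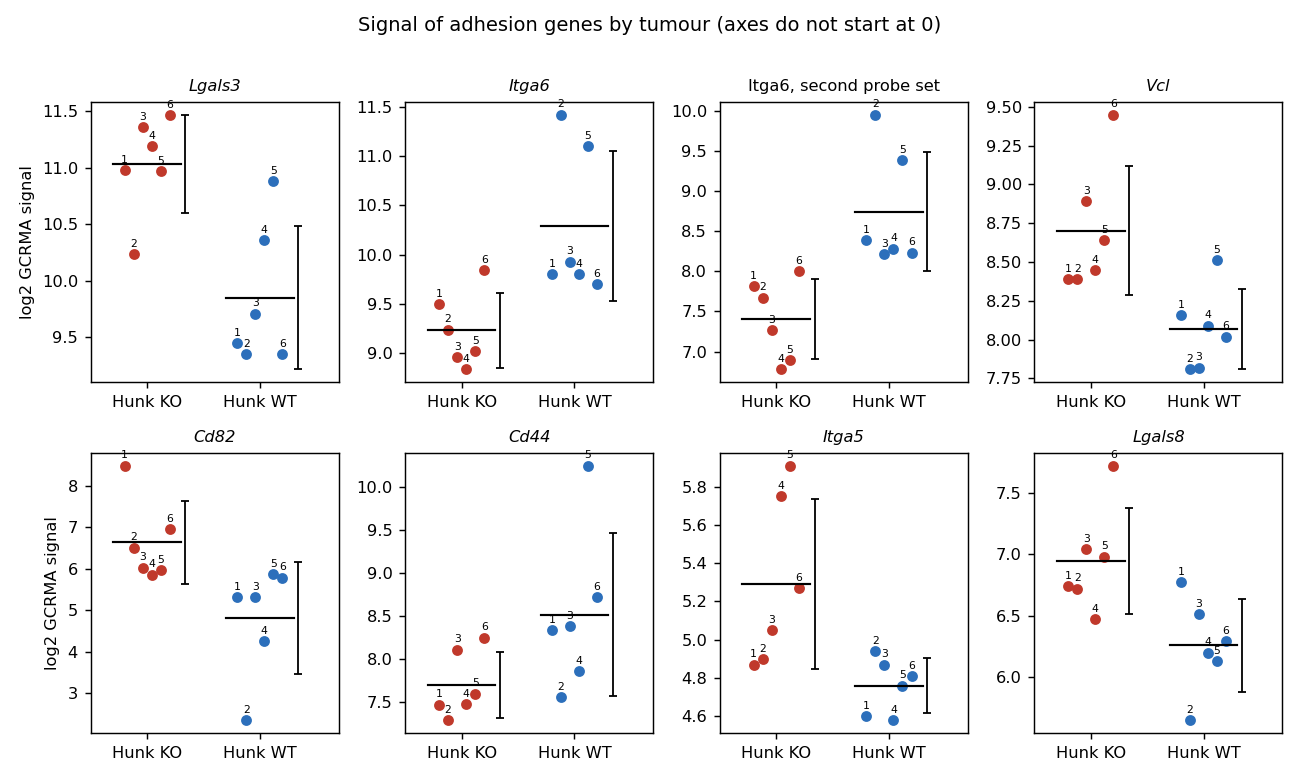
Log2 GCRMA signal of Lgals3, Itga6 on both probe sets, Vcl, Cd82, Cd44, Itga5 and Lgals8 in each tumour, with tumour numbers, the mean as a line and the SD beside it (n = 6 each). Lgals3 is above the highest Hunk WT tumour in 5 of 6 Hunk KO tumours, the second probe set of Itga6 separates the groups, and wild-type tumour 5 stands apart for Cd44.

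Itga3, which with Itgb1 forms another laminin receptor, had 3.84, 4.56 and 5.03 in Hunk KO tumours against 4.54, 5.04 and 7.54 in Hunk WT tumours. The highest Hunk WT value belonged to wild-type tumour 5, and the ranges of the groups overlapped. The difference of -0.90 (SE 0.45, adjusted p = 0.293) became -0.47 without that tumour.

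Itga5, whose pair with Itgb1 is the main fibronectin receptor, had 4.87, 5.16 and 5.91 in Hunk KO tumours against 4.58, 4.79 and 4.94 in Hunk WT tumours. It was above the highest Hunk WT tumour in 4 of 6 Hunk KO tumours, with the highest signals in knockout tumours 4 and 5. The difference was 0.53 (SE 0.18, adjusted p = 0.135). Its ligand fibronectin, Fn1, had means of 8.85 ± 0.92 in Hunk KO and 9.09 ± 1.18 in Hunk WT tumours (SD, n = 6 each, adjusted p = 0.826).

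The other tested alpha chains differed less on the probe sets used. Itgav, the chain of receptors for vitronectin and related ligands, had 7.44 to 8.45 in Hunk KO and 7.57 to 8.87 in Hunk WT tumours. The difference was 0.08 (adjusted p = 0.869), and -0.02 to 0.27 with 1 array left out. Dimmer tested probe sets of Itgav gave 0.38 (SE 0.12, adjusted p = 0.11 over probe sets) and 0.13 (adjusted p = 0.429). Itga9, a chain of receptors for tenascin and other ligands, differed by 0.17 (adjusted p = 0.47).

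Of the 6 beta chains, 2 were tested and 0 passed, with Itgb1 at an unadjusted p under 0.05. Itgb1, the beta chain shared by most of these receptors, had 8.51, 8.96 and 9.10 in Hunk KO tumours against 8.98, 9.27 and 9.41 in Hunk WT tumours. All 6 Hunk KO tumours lay below the Hunk WT median and 3 of them below the lowest Hunk WT tumour. The difference was -0.33 (SE 0.13, adjusted p = 0.184). A probe set of Itgb1 nearly as bright had the same sign, at -0.22 (adjusted p = 0.366 over probe sets). Of its much dimmer probe sets that were tested, 2 went the other way, by 0.23 and 0.14, and another was level. Those 2 had mean signals of 4.62 and 4.63. The mean over all probe sets of Itgb1, which includes 1 below background at 1.62, differed by -0.03 (adjusted p = 0.883). Itgb5, a partner of Itgav, had 6.57, 7.23 and 7.27 in Hunk KO tumours against 5.63, 7.58 and 8.10 in Hunk WT tumours. Its lowest and highest values of all 12 tumours were both in the Hunk WT group (-0.27, adjusted p = 0.687).

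Several integrin chains were near or under the background in these tumours. Itga2, Itga2b, Itga7, Itgb3, Itgb6 and Itgb7 were not well above background on any array, so no difference between the groups can be read for them. Itga4, a chain of receptors used mainly by leukocytes, was above it on 6 Hunk KO and 5 Hunk WT arrays, close to the limit.

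Itga8, a receptor chain whose known ligand is nephronectin, was not well above background in any Hunk KO tumour, at 2.94 to 3.17, and was above it in 3 of 6 Hunk WT tumours. In Hunk WT tumours 1 to 6 its signals were 5.21, 3.16, 2.99, 3.78, 4.79 and 3.29, so the raised values were those of tumours 1, 4 and 5. The difference was a bound of at least 1.11-fold lower in Hunk KO tumours (measured difference -0.81, adjusted p = 0.352 in the fit without a filter).

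Itgb4, which pairs with Itga6 in hemidesmosomes, was not well above background in any Hunk KO tumour and was above it in 1 Hunk WT tumour, wild-type tumour 5, at 5.67. The other 5 Hunk WT tumours lay between 1.37 and 2.07. Basal and myoepithelial cells contact the basement membrane in the gland. The summed signal of 8 of their markers was 9.34 to 10.64 in Hunk KO and 8.98 to 10.26 in Hunk WT tumours, and 9.41 in wild-type tumour 5. Of the 8, 0 were called, 6 were positive and 3 were at background on all 12 arrays. Acta2, at 8.58 to 9.60, had the highest means of the 8. Krt14 differed by 2.52 (adjusted p = 0.217), with 3.68 in knockout tumour 1 and 3.69 to 3.71 in wild-type tumours 1 to 4. Krt5 differed by -0.56 (adjusted p = 0.657), with 8.04 in wild-type tumour 6 and at most 4.36 in Hunk KO tumours. Its medians were 3.67 in Hunk KO and 3.65 in Hunk WT tumours.

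**Figure D3:**
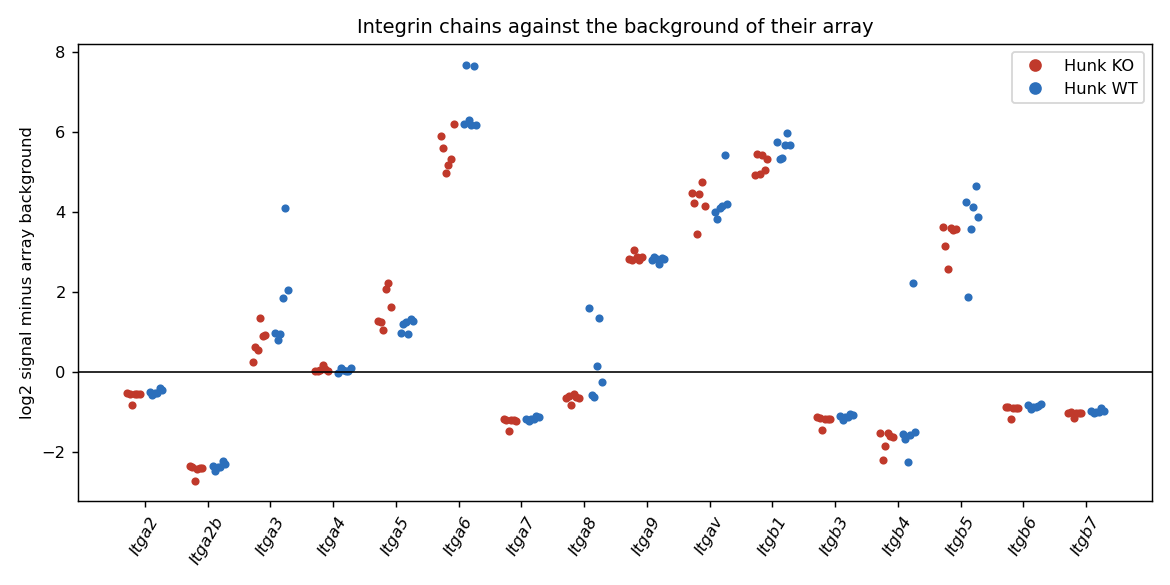
Log2 GCRMA signal of 16 integrin chains minus the background of the same array, 1 point per tumour, Hunk KO left of Hunk WT for each gene, with 0 marking background. Itga2, Itga2b, Itga7, Itgb3, Itgb6 and Itgb7 are below 0 on all 12 arrays. Itga8 is above 0 in 3 of 6 Hunk WT tumours and Itgb4 in 1.

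Of the 12 plaque genes, 11 were measured, 9 were tested and 0 passed, with Vcl and Lims1 at an unadjusted p under 0.05 and differences from -0.43 to 0.64. Vcl, the talin- and actin-binding protein vinculin, had 8.39, 8.54 and 9.45 in Hunk KO tumours against 7.81, 8.06 and 8.51 in Hunk WT tumours. All 6 Hunk KO tumours were above the Hunk WT median and 3 were above the highest Hunk WT tumour, with the highest signal in knockout tumour 6. The difference was 0.64 (SE 0.20, 95% interval 0.21 to 1.06, adjusted p = 0.0986), and it was 0.43 with the beta-actin measure as a covariate (adjusted p = 0.537).

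Other proteins of actin-linked adhesions had differences of both signs or close to 0. Tln1, the talin that joins integrin tails to actin, had 6.65, 6.89 and 7.72 in Hunk KO tumours against 7.23, 7.38 and 7.86 in Hunk WT tumours. The ranges overlapped, and the difference was -0.41 (adjusted p = 0.317). The paxillin gene Pxn (0.12, adjusted p = 0.869) and the LIM protein gene Zyx (0.01, adjusted p = 0.988), both found in adhesions attached to actin, had differences close to 0.

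The integrin-linked kinase Ilk, the actin-binding parvin Parva and the adaptor Lims1, or PINCH, form 1 complex at integrin tails. Lims1 had 6.74, 6.98 and 7.19 in Hunk KO tumours against 6.94, 7.37 and 7.85 in Hunk WT tumours. The groups overlapped, with the highest signal in a Hunk WT tumour, and the difference was -0.43 (SE 0.17, adjusted p = 0.18). Its other tested probe sets gave -0.65 and -0.30. Ilk differed by 0.15 (adjusted p = 0.594) and Parva by -0.09 (adjusted p = 0.771), so the members of the complex had differences of both signs.

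Crk, an adaptor that binds phosphorylated paxillin, had 8.69, 8.97 and 9.54 in Hunk KO tumours against 8.91, 9.19 and 9.75 in Hunk WT tumours. The ranges overlapped over most of their width (-0.16, with -0.25 to -0.04 and adjusted p from 0.432 to 0.975 in the 25 alternative fits). The kinase gene Src differed by -0.15 (adjusted p = 0.533).

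Below the limit for testing were Bcar1, the adaptor p130Cas, and the kinase Ptk2b. Bcar1 had 3.81, 4.00 and 4.20 in Hunk KO tumours, all above background, against 2.98, 3.61 and 3.81 in Hunk WT tumours, of which 3 were above it. In 5 of 6 Hunk KO tumours it was above the highest Hunk WT tumour, with a difference of 0.49 (adjusted p = 0.115 in the fit without a filter). Ptk2b was above background in 1 tumour of each group, at 3.66 in knockout tumour 6 and 4.40 in wild-type tumour 5. In the fit without a filter, over 12393 genes, 0 of the 11 genes below the limit passed, and 112 genes passed in all.

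Cd44, the hyaluronan receptor, had 7.29, 7.54 and 8.25 in Hunk KO tumours against 7.56, 8.36 and 10.25 in Hunk WT tumours. All 6 Hunk KO tumours lay below the Hunk WT median, 3 lay below the lowest Hunk WT tumour, and wild-type tumour 5 stood above the other 11. The difference was -0.82 (SE 0.38, adjusted p = 0.261) and became -0.47 without that tumour. The second probe set of Cd44 had the same sign, at -1.21 (adjusted p = 0.183 over probe sets).

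The 4 tetraspanins were all tested and 0 passed, with Cd82 at an unadjusted p under 0.05. Cd82, known as a suppressor of metastasis in several carcinomas, had 5.86, 6.27 and 8.49 in Hunk KO tumours against 2.35, 5.31 and 5.88 in Hunk WT tumours. It was above the highest Hunk WT tumour in 5 of 6 Hunk KO tumours, highest in knockout tumour 1, and below background in wild-type tumour 2. The difference was 1.82 (SE 0.62, 95% interval 0.48 to 3.16, adjusted p = 0.132), which was the largest of the 25 in size and had the widest error of those at an unadjusted p under 0.05. It was 1.32 without wild-type tumour 2 and 2.98 with the beta-actin covariate. As a mean over its probe sets, which include 1 below background at 3.43, it was 0.93.

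Cd9, a tetraspanin that binds integrins with Itgb1, had 9.60, 10.24 and 10.85 in Hunk KO tumours against 9.80, 10.50 and 11.64 in Hunk WT tumours. The ranges overlapped over most of their width, with the highest signal in wild-type tumour 1 (-0.39, adjusted p = 0.464, and -0.18 without that tumour). Cd81, a related tetraspanin found on many cell types, differed by 0.13 (adjusted p = 0.779). Cd151, which binds the laminin-receptor integrins directly, had 8.62 to 9.17 in Hunk KO and 8.35 to 9.14 in Hunk WT tumours. Its difference of 0.06 (adjusted p = 0.831) changed sign in 2 of 25 alternative fits.

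Galectins were the class with the called gene, 1 of 4 tested, beside 3.34% of all tested genes. All 4 differences were positive, from 0.02 to 1.18, but that of Lgals1 changed sign in 8 of 25 alternative fits and that of Lgals9 in 3 of 24. Among galectins outside the 25 genes, Lgals7 differed by -2.27 (adjusted p = 0.266) and Lgals2 by 0.26 (adjusted p = 0.335). Lgals3, galectin-3, a lectin that forms multimers on cell surfaces and is made by epithelial cells and macrophages, had 10.24, 11.08 and 11.47 in Hunk KO tumours against 9.35, 9.58 and 10.88 in Hunk WT tumours. It was above the highest Hunk WT tumour in 5 of 6 Hunk KO tumours, knockout tumour 2 lay inside the Hunk WT range, and wild-type tumours 4 and 5 were the highest of their group. Its means were 11.03 ± 0.44 in Hunk KO and 9.85 ± 0.63 in Hunk WT tumours (SD, n = 6 each), a difference of 1.18 (SE 0.29, 95% interval 0.55 to 1.81, 2.27-fold higher, adjusted p = 0.0469).

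The call for Lgals3 lay close to the threshold, and its 1 probe set did not pass in the fit over probe sets (adjusted p = 0.0529). Of the 12 fits with 1 array left out it held in 2, without knockout tumour 2 (adjusted p = 0.0298) and without wild-type tumour 5 (adjusted p = 0.0177), and it was lost without any 1 of the other 10, with differences of 1.08 to 1.39 and adjusted p up to 0.0931 over the 12. With the beta-actin covariate the difference was 1.08 (adjusted p = 0.25), and with knockout tumours 4 and 5 averaged the adjusted p was 0.0817. Of 9 macrophage markers, 0 were called, 1 was positive and none was at background on all 12 arrays. Their summed signal was 10.69 to 11.96 in Hunk KO and 10.89 to 11.76 in Hunk WT tumours. The positive one was Cd14, at 1.24 (adjusted p = 0.159). C1qa differed by -0.52 (adjusted p = 0.0986), C1qb by -0.66 (adjusted p = 0.123) and C1qc by -1.03 (adjusted p = 0.164). The remaining macrophage markers lay between -0.18 and -0.02. Of 8 fibroblast markers, 0 were called and 7 were positive, with a summed signal of 10.93 to 12.26 in Hunk KO and 10.46 to 11.61 in Hunk WT tumours, and Dcn, Lum, Pdgfra and Thy1 were at background on all 12 arrays. Of the 8 luminal epithelial markers, 2 were called, both higher in Hunk KO tumours, 5 were positive, and none was at background on all 12 arrays. Krt19, a luminal keratin, had means of 10.64 ± 1.45 in Hunk KO and 6.56 ± 2.20 in Hunk WT tumours (difference 4.08, adjusted p = 0.0424). Cd24a, a surface protein of luminal cells, had 12.01 ± 0.21 in Hunk KO and 11.14 ± 0.40 in Hunk WT tumours (SD, n = 6 each, difference 0.87, adjusted p = 0.0244). The mucin Muc1 differed by 2.35 (adjusted p = 0.109), and the milk protein gene Csn3 by -2.25 (adjusted p = 0.419). Krt8 differed by 0.39 (adjusted p = 0.385) and Cdh1 by 0.14 (adjusted p = 0.476). Epcam differed by -0.19 (adjusted p = 0.5) and Krt18 by -0.17 (adjusted p = 0.802). The part of these cell types and of RNA quality in the difference of Lgals3 was not tested further.

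Lgals8, a galectin with a pair of sugar-binding domains, had 6.47, 6.86 and 7.72 in Hunk KO tumours against 5.65, 6.25 and 6.77 in Hunk WT tumours. The groups overlapped between the lowest Hunk KO and the highest Hunk WT values, with the highest signal in knockout tumour 6. The difference was 0.68 (SE 0.23, adjusted p = 0.125), against 0.14 on its second probe set. Lgals1, a small galectin made by many stromal cells, had 9.52, 9.76 and 10.17 in Hunk KO tumours against 8.81, 9.80 and 10.64 in Hunk WT tumours (0.02, adjusted p = 0.973). Lgals9, known for its effects on T cells, had 4.09, 4.83 and 7.26 in Hunk KO tumours against 3.92, 4.45 and 6.43 in Hunk WT tumours (0.18, adjusted p = 0.884), the widest spread of the 4 galectins.

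Wild-type tumour 5 had the highest signal of the 12 arrays for 7 of the 25 genes, or 28.0%, against 12.3% of all tested genes. The 7 were Itga3, Itgav, Itgb1, Itgb5, Zyx, Cd44 and Lgals1. The gap to the next array was wide for Itga3 (7.54 against 5.58) and Cd44 (10.25 against 8.72) and narrower for Itgav (8.87 against 8.45), Zyx (7.88 against 7.37) and Lgals1 (10.64 against 10.17). It was small for Itgb5 (8.10 against 7.87), and Itgb1 was nearly level with the next array (9.41 against 9.37). Itgb4 and Ptk2b, below the limit for testing, were also highest in it. The SD was smaller in Hunk KO than in Hunk WT tumours for 15 of the 25 genes, against 42.4% of all tested genes, and without that tumour for 12 of the 25, or 48.0%, against 38.7%.

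**Figure D4:**
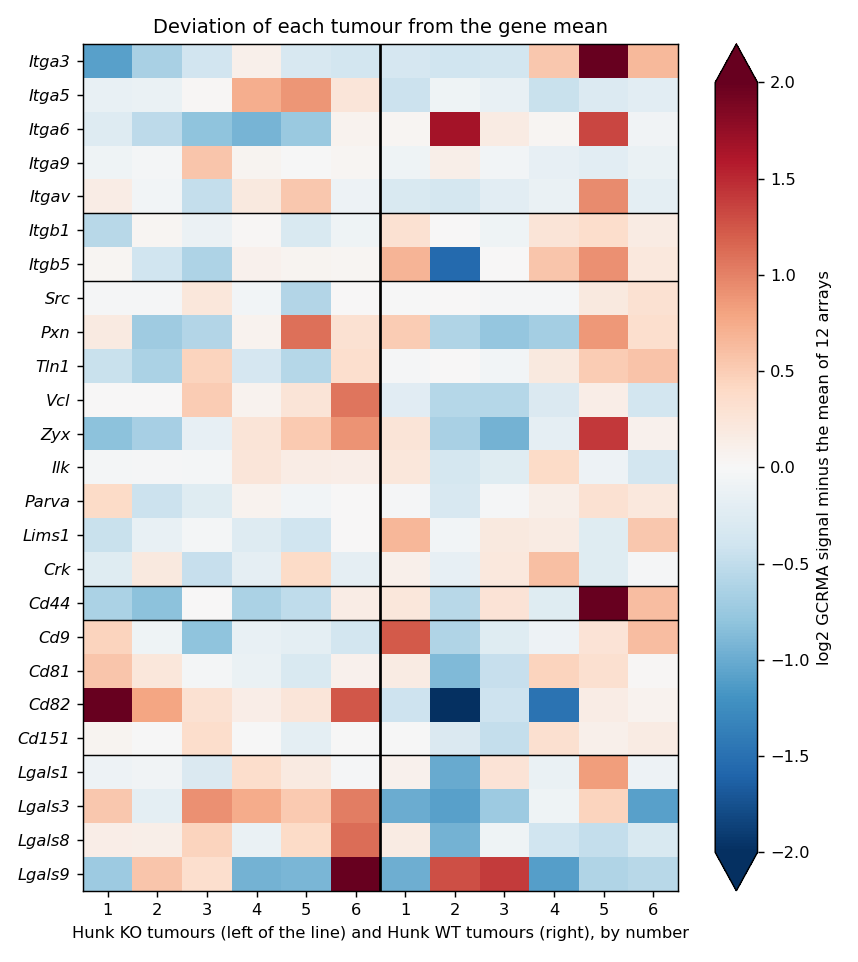
Log2 GCRMA signal of the 25 tested genes in each tumour minus the gene's mean over the 12 arrays, Hunk KO tumours to the left of the line and Hunk WT tumours to the right, with the colour scale ending at 2 on each side. Wild-type tumour 5 is the darkest red cell of its row for Itga3 and Cd44, and the Lgals3 row is red in 5 of 6 Hunk KO tumours.

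A further 129 genes of integrin ligands, plaque and signalling proteins, other integrins, tetraspanins, galectins and CD44 partners were listed by function. Of these, 109 were measured and 73 tested, and 2 rose and 3 fell in Hunk KO tumours, which is 6.85% of the 73 beside 3.34% of all tested genes. Their differences had a median of -0.19 against 0.01 over all tested genes, with 25 positive and 48 negative. All 29 other plaque and signalling genes tested (median -0.15), all 15 other tetraspanins and partners (median -0.36) and both other galectins tested missed the threshold, and 0 of 5 other integrin chains measured reached the limit for testing. Among the 17 ligands tested 1 rose and 3 fell (median -0.16), and among 10 CD44 partners 1 rose (median -0.28).

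Npnt, nephronectin, the basement membrane ligand of integrins with Itga8, fell 13.6-fold in Hunk KO tumours. Its signal was 3.66, 3.85 and 4.45 in Hunk KO tumours against 6.24, 7.76 and 9.03 in Hunk WT tumours. Every Hunk KO tumour was below every Hunk WT tumour, and the highest Hunk WT signals were in tumours 2, 4 and 1. The difference was -3.76 (SE 0.48, adjusted p = 0.00191), it passed in the 24 alternative fits that measured it, and it was -1.08 as a mean over its 5 probe sets. Itga8 was highest in Hunk WT tumours 1, 5 and 4.

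A pair of laminin chains, components of the ligands of Itga6 and Itga3 receptors, also fell. Lamb1, a beta chain of laminins, had 5.11, 5.26 and 5.65 in Hunk KO tumours against 5.69, 6.08 and 6.53 in Hunk WT tumours, with no overlap (-0.74, SE 0.15, adjusted p = 0.0256). It passed without each array but knockout tumour 6 (adjusted p = 0.0547), and its probe set of highest interquartile range gave -1.51. Lama4, an alpha chain found in vessel and muscle basement membranes, had 4.93, 5.11 and 5.18 in Hunk KO tumours against 5.55, 5.85 and 7.17 in Hunk WT tumours, with no overlap (-1.12, SE 0.27, adjusted p = 0.0436). The highest Lama4 signals were those of wild-type tumours 5 and 1. Of the 12 fits with 1 array left out it passed in 1, without wild-type tumour 2, with adjusted p up to 0.0785. Of 7 endothelial markers, 4 were at background on all arrays, and the summed signal was 6.30 to 6.54 in Hunk KO and 6.22 to 6.48 in Hunk WT tumours.

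Adam9, a membrane metalloprotease whose disintegrin domain binds integrins, had 7.73, 8.22 and 8.43 in Hunk KO tumours against 6.92, 7.27 and 7.74 in Hunk WT tumours. It rose by 0.85 (SE 0.18, adjusted p = 0.0282), with the lowest Hunk KO tumour at the level of the highest Hunk WT tumours. It passed without knockout tumours 1, 4 or 5 or wild-type tumours 2 or 4 and was lost without any 1 of the other 7, with adjusted p up to 0.0603. Esrp2, an epithelial splicing factor known to act on Cd44 transcripts, had 8.02, 8.24 and 8.47 in Hunk KO tumours against 7.04, 7.59 and 7.77 in Hunk WT tumours, with no overlap (0.75, SE 0.15, adjusted p = 0.0256). Leaving out knockout tumour 4, knockout tumour 6 or wild-type tumour 4 ended the call, with adjusted p up to 0.0533, and was 0.45 as a mean over its probe sets.

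**Figure D5:**
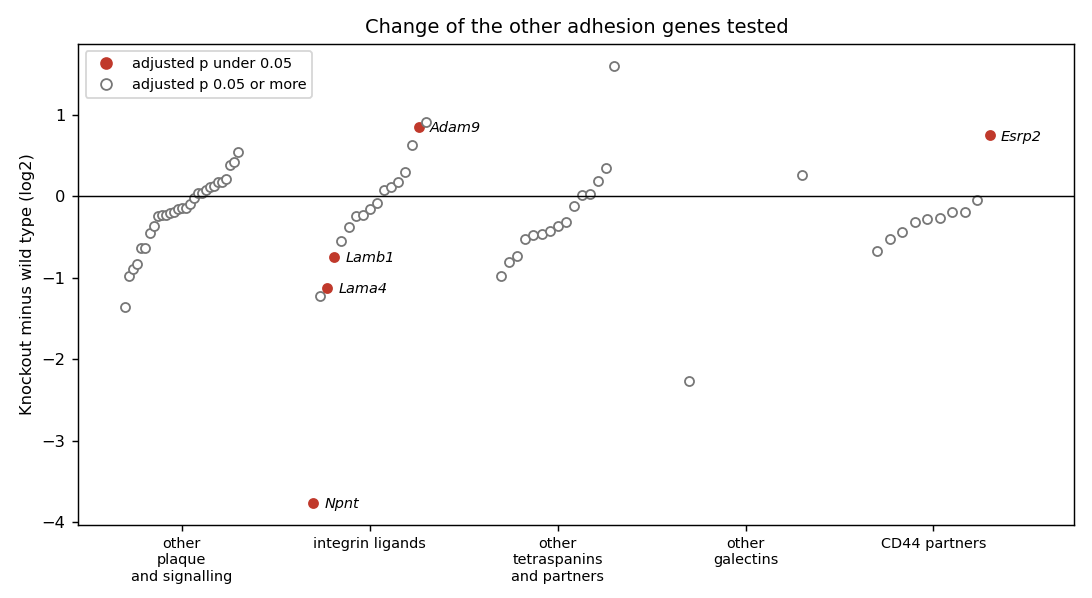
Difference in log2 GCRMA signal, Hunk KO minus Hunk WT, of the 73 other adhesion genes tested, in order of size within each list. Filled points are Npnt, Lama4 and Lamb1 below 0 and Adam9 and Esrp2 above 0, and open points are genes with an adjusted p of 0.05 or more, such as the tetraspanin gene Tspan1 at 1.60 (adjusted p = 0.146) and the galectin gene Lgals7 at -2.27 (adjusted p = 0.266).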

How the data were processed

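RNA of 12 mammary tumours was measured on Affymetrix mouse arrays, 6 Hunk KO and 6 Hunk WT. The deposited values are log2 signals of 22690 probe sets, and GCRMA is the one tool named, per the submitters' processing notes, with no version. Other steps, scan dates and the genome build are not given in the sources used here, so no batch could be tested and no coordinates are printed. GCRMA compresses differences near background. Precision is limited by the number of arrays.

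The values were used as deposited, with 0 columns left unused. Gene names came from GEO's platform annotation, in which 20393 probe sets had 1 symbol, 691 several and 1606 none or no entry, and 20364 of those with 1 symbol were found in a RefSeq gene table. No gene was named from a probe set with several symbols. Each gene took the probe set that was brightest on average, and genes with a mean above 3.98, the median of the probe sets that are not controls, were tested with limma 3.58.1 (lmFit, eBayes with trend, R 4.3.3), group being the one term, and Benjamini-Hochberg adjustment over all 6825 genes at 0.05. Probe sets were also fitted on their own. A probe set at or below the highest of 27 Bacillus control probe sets of its array was called not well above background. Where a group had no array above it, the fold is a bound, the other group's mean over this group's mean with each value raised to its array's background.

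The genes and lists were chosen with earlier results of these data known. Named were genes past the threshold, those whose groups do not overlap, and in each class those with the largest difference and the highest mean, with all other genes given by their difference or by counts. Itga3, Itga5, Itga8, Itgav, Itgb4, Itgb5, Tln1, Lims1, Bcar1, Lgals1, Lgals8, Lgals9, Fn1, Tspan1 and Lgals7 were given more values after these were seen. So were Ilk, Parva, Lgals2, Krt5, Krt14, Acta2, the luminal and macrophage markers and the second probe sets. Alternatives were no filter, a 75th percentile filter, eBayes without trend, quantile normalization, 2 kinds of median centring, a floor at background, an offset of 16, 2 other gene summaries, a replicate block, knockout tumours 4 and 5 averaged, a beta-actin covariate, a threshold of 0.1 and leaving out each array. The steps were tested on simulated data, and figures were drawn with matplotlib 3.10.9.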

Additional observations from a re-analysis of the deposited data

Results flagged for a closer look

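In 9 of 60 groups of 6 arrays, over 30 genes with a signal to examine, a single tumour stood far from the others of its group by Dixon's test at the 95% level, a test that picks out about 1 in 20 groups by chance. In the Hunk KO group, Itga9 was at 7.06 in tumour 3 against 6.41 to 6.55 in the others, Src was at 4.91 in tumour 5 against 5.44 to 5.72, Ptk2b was at 3.66 in tumour 6 against 3.08 to 3.26, and Itgb4 was at 1.46 in tumour 2 against 2.04 to 2.16, with all 6 of the Itgb4 values below background. Knockout tumour 3 also had the highest summed skeletal muscle signal, 12.96, and the highest array background, 4.00, and their part in its Itga9 value was not tested.

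In the Hunk WT group, tumour 5 stood apart for Itga3 at 7.54 against 4.54 to 5.58, Itgav at 8.87 against 7.57 to 7.78, Itgb4 at 5.67 against 1.37 to 2.07, and Ptk2b at 4.40 against 3.01 to 3.16. Wild-type tumour 2 stood apart for Itgb5, at 5.63 against 7.20 to 8.10.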

How the results depend on the processing

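Of the 25 adhesion genes tested, 14 kept the sign of their difference in every alternative fit that held them, which was 23 to 25 fits for each gene, and 11 changed it in at least 1, none of these called in any fit. Lgals3 was the only 1 called in any alternative, in 10 of 25. The count of adhesion genes called higher, 1, became 0 with no filter, with arrays centred on their median, with the replicate block, with knockout tumours 4 and 5 averaged and with the beta-actin covariate, and 2 at an adjusted p under 0.1, where the count called lower, 0, became 1. With 1 array left out it was 0 to 1. The median difference of the adhesion genes held in each alternative (25 in most, 36 with no filter, 18 above the 75th percentile of signal and 22 with the mean of all probe sets) stayed within the spread between tumours (SD 0.16) of the value of 0.02.

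The count over all genes, 228, was 112 with no filter, 125 with knockout tumours 4 and 5 averaged, 72 with the beta-actin covariate (47 higher and 25 lower) and 463 at an adjusted p under 0.1. It was 95 to 212 with 1 array left out, with 138, 135 and 130 without knockout tumours 4, 5 and 6 and 95 and 150 without wild-type tumours 4 and 5. Centring over the tested genes, chosen after seeing the data, gave 146 higher and 101 lower. The median difference of all genes lay between -0.05 and 0.05. The 2 other adhesion genes called higher became 1 with no filter and 0 with the beta-actin covariate (0 to 2 with 1 array left out, 0 without knockout tumour 6). The 3 called lower were removed before testing by the 75th percentile filter, which left 0, and became 1 with the beta-actin covariate (1 to 4 with 1 array left out, 1 without knockout tumour 6). The causes of the other shifts were not tested.

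Replicate numbers of the titles do not state a pairing. Same-numbered arrays had correlations of -0.04 to 0.138 in their deviations from the group means, and 3 of 6 correlated best with their own number. With the number as a replicate block, 69 genes were called, with 0 adhesion genes called higher (Lgals3 adjusted p = 0.0776) and 0 and 1 of the other adhesion genes called higher and lower.

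Signals near background limit Itga8, Itgb4, Itga4, Ptk2b and Bcar1, and 6 integrin chains could not be read in either group.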
